A study of Mus musculus with 6 samples.

Results

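The comparison set the stromal fraction P6 of the mouse omentum against P4 and P5, the fractions that lacked CD105 and carried CD140a. It used 3 of the 6 libraries of the series for the contrast itself and the libraries P1, P2 and P3 as the reference from which the programme of P6 was read, over all 23352 gene symbols. All 6 libraries came from the omentum of WT C57BL/6 mice, and every gate excluded CD45+ haematopoietic cells. P4 and P5 were CD140a+ CD105- cells with intermediate and low activity of aldehyde dehydrogenase (ALDH), P6 was CD140a low with ALDH activity, and P1, P2 and P3 were CD140a+ CD105+ cells with high, intermediate and low ALDH activity. CD140a is the PDGF receptor alpha of fibroblasts, CD105 is endoglin, and ALDH activity was read with a fluorescent substrate. Each population had 1 library, the sources used here do not give the number of mice behind it, and no test of a difference between populations was possible.

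The omentum is a fold of peritoneum that carries fat and the milky spots, small lymphoid clusters at its surface. A mesothelium, a single sheet of flat cells of mesodermal origin joined by tight junctions and filled with keratins, covers it, and fibroblastic stroma lies beneath. Mesothelial cells express WT1, mesothelin and uroplakins together with genes of mesenchyme, so a mesothelial and a fibroblastic programme share part of their genes.

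Expression was given as FPKM, fragments per kilobase of transcript scaled to the mapped reads of the library. The steps between low FPKM values gave an estimated depth of about 36900000 reads for P6, against 58500000 for P4, 61700000 for P5 and 53400000 to 61700000 for P1 to P3. Intervals printed beside a ratio were 95% intervals for counting error at these estimated depths and covered neither animals nor library preparation. The genes of the sort markers followed the gates. Pdgfra, which encodes CD140a, stood at 5.36 FPKM in P6, 119 in P4 and 117 in P5, with 152, 154 and 153 in P1 to P3. Eng, which encodes CD105, stood at 52.4, 52.2, 42.6, 0.359, 0.231 and 0.728 FPKM in P1 to P6. P6 was thus under 1 FPKM in this transcript, as were P4 and P5, though it lay above both. Ptprc, which encodes CD45, was at 0.755 FPKM or less in all 6 libraries. These genes reflect the sort and are not findings.

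A gene was looked at when P6 or the mean of P4 and P5 reached 1 FPKM, which held for 12487 genes. A gene was called higher in P6 when P6 was at least 2 times the mean of P4 and P5 and called lower when that mean was at least 2 times P6, on ratios taken after adding 0.1 FPKM. By this rule 1175 genes (9.41%) were higher in P6 and 903 (7.23%) lower. Against P4 and P5 separately, P6 passed the ratio of 2 over both in 980 genes (7.85%) and under both in 726 (5.81%). The median log2 ratio over all genes looked at was 0.02. P4 and P5 differed less from each other, since P4 was at least 2 times P5 in 473 of 12022 genes (3.93%) and P5 at least 2 times P4 in 173 (1.44%).

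**Figure D1:**
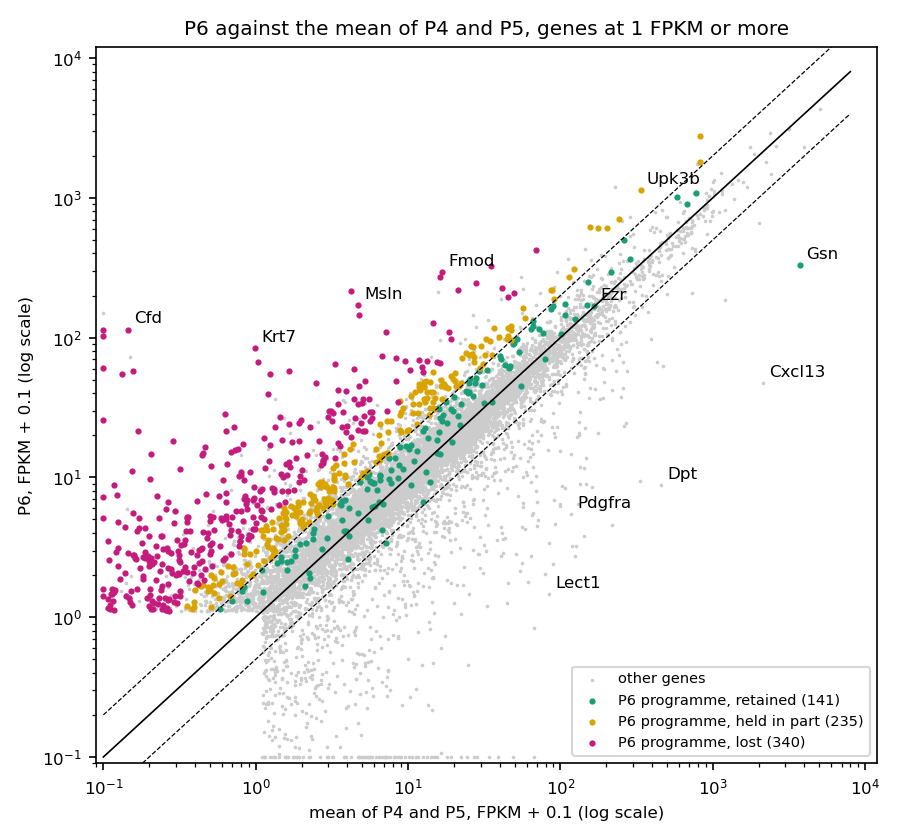
Each point is 1 of the 12487 genes, with the mean FPKM of P4 and P5 on the x axis and the FPKM of P6 on the y axis, both plus 0.1 on log scales. The solid line marks equality and the dashed lines a ratio of 2 either way; coloured points are the P6 programme in its 3 classes, and most of them lie above the upper dashed line.

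The programme of P6 was taken from the CD105+ fractions, without P4 and P5. It was the genes at 1 FPKM or more in P6 and, after adding 0.1 FPKM, at least 4 times each of P1, P2 and P3. It held 716 of the 12043 genes at 1 FPKM in P6 (5.95%). The P6 value entered both this choice and the reading of P4 and P5 against it. A programme gene was called retained when the mean of P4 and P5 was above 50% of P6, held in part when it lay between 25% and 50%, and lost at 25% or less. These class limits also applied after adding 0.1 FPKM to both values. By this rule 141 genes (19.7%) were retained, 235 (32.8%) were held in part and 340 (47.5%) were lost. These shares depended on the programme's own threshold: with 2 times P1 to P3 in place of 4 the retained share was 40% of 1555 genes, and with 8 times it was 7.71% of 376. The median programme gene stood at 25.7% of P6 in P4 and at 19.5% in P5.

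In 529 of the 716 genes both P4 and P5 lay above the highest of P1, P2 and P3, namely 138 of the retained genes, 197 of those held in part and 194 of the lost genes. The rule kept genes that were low in P1 to P3, so these counts are in part set by it and nothing is read from them. At the other end 172 programme genes stood below 10% of P6, and 27 below 1%. Among the 237 programme genes at 20 FPKM or more in P6, 61 were retained, 93 held in part and 83 lost.

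Members at the edges of the classes had close values. Sema3f was the last gene called retained, at 27.3, 30.6 and 58 FPKM in P4, P5 and P6. Efcab12 was the last held in part, at 0.450, 0.365 and 1.92 FPKM, and Tagap the first lost, at 7.005, 9.86 and 34.3 FPKM. Without the added 0.1 FPKM the mean of P4 and P5 was 21.2% of P6 for Efcab12 and 24.6% for Tagap. At the edge of the programme itself Slc7a1 was included, with 14.5 FPKM in P6 against a highest value of 3.54 in P1 to P3, and Fam213a was not, with 15.8 against 3.87.

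The mesothelial list had members in all 3 classes. Of its 24 genes 22 were looked at, 3 of them only through P6. In P6 15 were higher and 0 lower (9.41% and 7.23% over all genes looked at), and the median log2 ratio was 1.52. Of the 18 members in the P6 programme, 4 were retained, 6 held in part and 8 lost, near the shares over the whole programme, so that the split is not particular to the list. Upk3b, Lrrn4, Wt1, Krt8 and Msln, the markers taken for mesothelium, were all highest in P6 and were held to very different degrees in P4 and P5.

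Ezr and Wt1 were near P6 levels in P4 and P5. Ezr, which links actin to the membrane of microvilli, was at 168 FPKM in P6, 165 in P4 and 169 in P5, with 10.1, 10.7 and 24.1 in P1 to P3. Wt1, a transcription factor of mesothelium and its derivatives, was at 211 FPKM in P6, 149 in P4 and 197 in P5, with 50.3, 79.2 and 106 in P1 to P3, and since P6 was under 4 times P1 to P3 it was not a programme gene. The ratio of P6 to the mean of P4 and P5 was 1.01 times (95% counting interval 0.991 to 1.02) for Ezr and 1.22 times (95% counting interval 1.20 to 1.24) for Wt1. Ezr separated P4, P5 and P6 from P1 to P3, whereas Wt1 differed by less than 2 times between P3 and P6. Nkain4, whose product associates with the sodium pump, was at 367 FPKM in P6, 303 in P4 and 266 in P5, with 18.1, 20.6 and 36.3 in P1 to P3. Dmkn was at 81.7, 71.7 and 107 FPKM in P4, P5 and P6. Crb2, which sets apical polarity, was at 22.9, 25.1 and 41.6 FPKM in the same order. These 3 genes kept between 55.2% and 82.5% of the P6 value in P4 and P5.

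A second tier of mesothelial genes was held in part. Upk3b, a uroplakin of the mesothelial surface, was at 1139.8 FPKM in P6, 383 in P4 and 289 in P5, with 11.1, 6.78 and 22.7 in P1 to P3. P6 was 3.39 times (95% counting interval 3.37 to 3.42) the mean of P4 and P5, which in turn lay far above each of P1 to P3. Lrrn4, a membrane protein with leucine-rich repeats, was at 308 FPKM in P6, 135 in P4 and 110.4 in P5, with 3.64, 2.40 and 7.65 in P1 to P3, and P6 was 2.50 times (95% counting interval 2.47 to 2.54) the mean of P4 and P5. Both fractions thus sat between P1 to P3 and P6 in these membrane genes. The keratin gene Krt19 was at 197, 116 and 619.8 FPKM in P4, P5 and P6. Bnc1, which encodes the zinc finger protein basonuclin, was at 14, 14.2 and 40.4 FPKM. Gpm6a and Pkhd1l1 were also lower in P4 and P5, at 218 and 164 FPKM in P6 and 50.04 to 98.9 in P4 and P5. In all 6 of these genes P4 and P5 were within 1.70 times of each other and both below P6.

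The keratins of simple epithelia and mesothelin were at 4.01% of P6 or less in P4 and P5. Krt7 was at 84.5 FPKM in P6, 1.32 in P4 and 0.467 in P5, with 0.0811, 0.316 and 0.131 in P1 to P3, a ratio of P6 to the mean of P4 and P5 of 94.6 times (95% counting interval 85.8 to 104). Krt18 was at 67 FPKM in P6, 1.49 in P4 and 0.378 in P5, with 0.0780, 0.135 and 0.0412 in P1 to P3. Krt8, whose product pairs with keratin 18 in filaments, was at 57.2 FPKM in P6, 2.04 in P4 and 1.08 in P5, with 0.0467, 0.0908 and 0.144 in P1 to P3. In all 3 keratins P6 was highest, then P4, then P5. Msln, which encodes the surface protein mesothelin, was at 171 FPKM in P6, 6.86 in P4 and 2.31 in P5, with 0.127, 0.550 and 0.163 in P1 to P3, and P6 was 37.3 times (95% counting interval 35 to 39.8) the mean of P4 and P5. In each of these 4 genes P4 was above P5, and both were above P1, P2 and P3. Krt19, at 31.8% of the P6 value in P4 and 18.7% in P5, did not share the level of the other 3 keratins. Upk1b, another uroplakin, was at 43.5, 26.6 and 324 FPKM in P4, P5 and P6. Slpi, a secreted protease inhibitor, was at 18.4, 10.7 and 127 FPKM. Cldn15, a claudin of tight junctions, was at 58.1, 41.5 and 209 FPKM. These 3 lay well above P1 to P3 in P4 and P5 although they were called lost. Anxa8 was at 0.307, 0.126 and 11.4 FPKM in P4, P5 and P6 and was thus no higher in P4 and P5 than in P1 to P3. Ildr2, at 83.4, 114 and 93.8 FPKM in P4, P5 and P6, and Prg4, at 2.26 FPKM or less in all 6 libraries, did not set P6 apart, and Calb2 was listed at 0 in all 6. Across the 18 mesothelial programme genes the share of the P6 value ran from 1.56% to 98.1% in P4 and from 0.553% to 100.4% in P5.

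**Figure D2:**
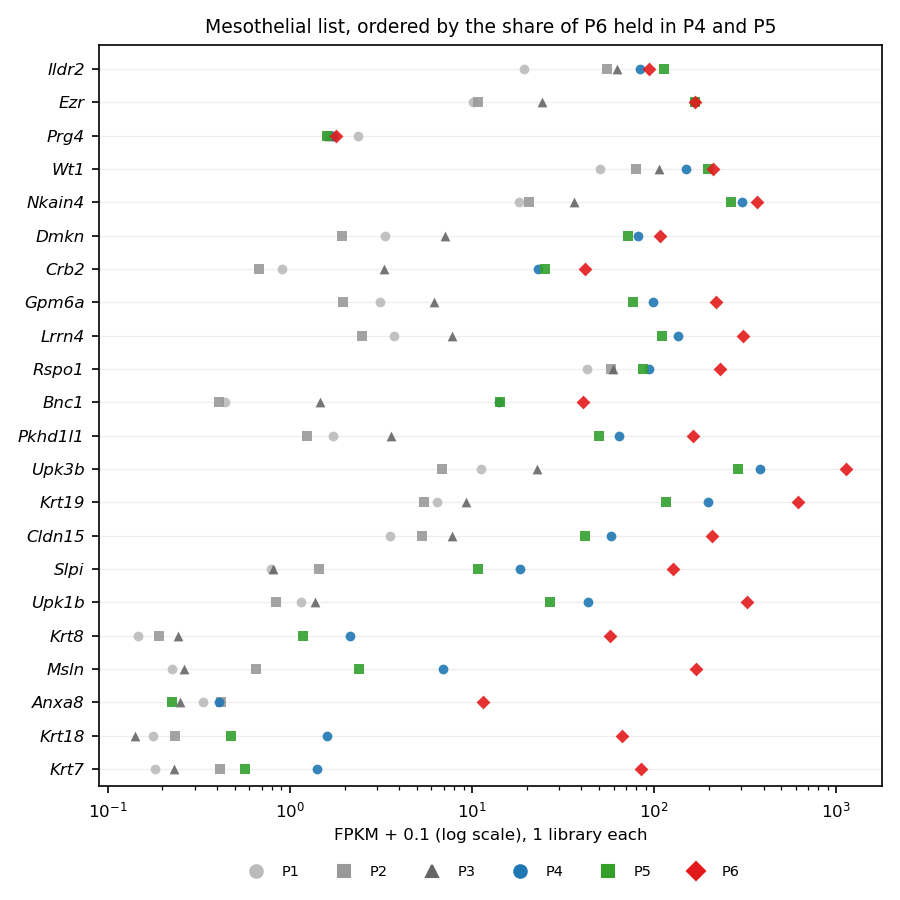
Each row is 1 of the 22 mesothelial genes looked at and each symbol 1 library, with FPKM plus 0.1 on a log axis; rows run from the highest to the lowest share of P6 held in P4 and P5. P6 and P4 or P5 coincide at the top (Ezr at 165 to 169 FPKM in all 3) and lie farthest apart at the bottom (Krt7 at 84.5 FPKM in P6 against 1.32 and 0.467).

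The promoters of 4 of these genes, 1 retained, 1 held in part and 2 lost, are shown because the genes run from near equality of P6 with P4 and P5 to the widest gaps of the list. Each run is the 250 bases before the start site in the direction of transcription, from RefSeq on GRCm38.p6, the assembly behind the mm10 build of the deposited values. Capitals mark matches on either strand to 3 motifs, which did not overlap one another in these windows. The TEAD motif was searched as GGAATG. The letters of the GC box were GGGCGG, and those of the TATA box were TATAAA. The windows lie at chr17:6782781-6783030 on the minus strand for Ezr, chr5:136038246-136038495 on the plus strand for Upk3b, and chr15:101412153-101412402 and chr15:102027966-102028215 on the plus strand for Krt7 and Krt18.
Ezr: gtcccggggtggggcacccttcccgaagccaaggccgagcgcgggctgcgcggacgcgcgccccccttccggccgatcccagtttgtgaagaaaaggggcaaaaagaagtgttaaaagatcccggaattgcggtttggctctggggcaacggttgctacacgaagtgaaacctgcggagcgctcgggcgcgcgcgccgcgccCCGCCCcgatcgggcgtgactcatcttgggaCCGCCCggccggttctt
Upk3b: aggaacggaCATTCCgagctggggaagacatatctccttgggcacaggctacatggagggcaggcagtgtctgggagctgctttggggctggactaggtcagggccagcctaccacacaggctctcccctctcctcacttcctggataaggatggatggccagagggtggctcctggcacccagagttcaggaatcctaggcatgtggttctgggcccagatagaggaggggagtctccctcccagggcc
Krt7: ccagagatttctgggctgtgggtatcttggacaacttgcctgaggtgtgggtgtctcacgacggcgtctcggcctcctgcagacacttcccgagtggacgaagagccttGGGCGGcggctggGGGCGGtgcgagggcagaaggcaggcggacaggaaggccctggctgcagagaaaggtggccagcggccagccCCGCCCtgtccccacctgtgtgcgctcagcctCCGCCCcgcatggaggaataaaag
Krt18: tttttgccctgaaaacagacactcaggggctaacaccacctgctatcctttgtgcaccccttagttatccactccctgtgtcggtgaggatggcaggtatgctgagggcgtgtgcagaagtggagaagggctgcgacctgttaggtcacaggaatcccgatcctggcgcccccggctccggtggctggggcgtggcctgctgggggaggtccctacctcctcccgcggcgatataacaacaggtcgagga

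The Ezr window held 2 GC boxes, the Krt7 window 4 GC boxes, the Upk3b window 1 TEAD motif, and the Krt18 window none of the 3 motifs. Krt7, Krt8 and Krt18 lie in the keratin cluster of chromosome 15 (Krt7 at 101412403 to 101427806, Krt8 at 101996711 to 102004342 and Krt18 at 102028216 to 102032026), and Krt19 lies on chromosome 11 (100140810 to 100145926). Promoter windows were found for 98 of the 141 retained genes, 166 of the 235 held in part and 228 of the 340 lost genes, some with more than 1 window. The TEAD motif stood in 19.4% of the 144 windows of retained genes, 18.1% of 204 for genes held in part, 15.1% of 298 for lost genes and 11% of the 11684 windows of all genes looked at. The GC box stood in 51.4%, 46.6%, 44.6% and 57.8% of the same windows, and over all 32851 windows of that length the shares were 12.6% and 32.7%. The TATA box stood in 13.2% of windows of retained genes, 13.2% of those held in part, 7.38% of those lost, 6.42% over all genes looked at and 12.4% over all windows. These shares are descriptions of letters in the windows and were not tested.

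Of the 20 junction and polarity genes looked at, 4 of them only through P6, 12 were higher and 0 lower in P6. Over all genes looked at the shares were 9.41% and 7.23%. The median log2 ratio of the list was 1.28. Of the 16 in the programme 4 were retained, 5 held in part and 7 lost, again near the shares over the whole programme. Cldn10, a claudin, was retained at 106 FPKM in P6, 95 in P4 and 106 in P5. F11r, the junctional adhesion molecule A, was retained at 70.6 FPKM in P6, 38.6 in P4 and 42.2 in P5, and Jup, plakoglobin, at 37.9 FPKM in P6, 25.9 in P4 and 27.3 in P5. Other genes of the list were lower in P4 and P5 than in P6. Cgn, cingulin, was lost at 29.3 FPKM in P6, 6.42 in P4 and 4.98 in P5, while its paralogue Cgnl1 was held in part at 75.8 FPKM in P6, 27.2 in P4 and 25.3 in P5. The polarity gene Pard6b was lost at 29.3 FPKM in P6, 4.31 in P4 and 2.94 in P5. The widest gaps of the list were in Pkp2 and Evpl. Pkp2, a plakophilin of desmosomes, was at 5.002 FPKM in P6, 0.101 in P4 and 0.162 in P5, and Evpl, envoplakin, at 10.9 FPKM in P6, 1.11 in P4 and 0.284 in P5. Podxl, a sialomucin of apical surfaces, was held in part at 189 FPKM in P6, 97 in P4 and 85.2 in P5, against at most 7.05 in P1 to P3.

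Mesodermal transcription factors included genes near equality and genes that differed in either direction. Gata5, a zinc finger factor of mesoderm, was at 34.8 FPKM in P6, 33.7 in P4 and 37.4 in P5, with 1.22, 0.925 and 5.23 in P1 to P3. Gata6, its relative, was at 80.9 FPKM in P6, 58.3 in P4 and 80.3 in P5, with 14.9, 22.6 and 37.1 in P1 to P3. Both were near P6 levels in P4 and P5, and Gata4 was at 1.43 FPKM or less in all 6 libraries. Klf5 was lost at 8.28 FPKM in P6, 1.30 in P4 and 1.07 in P5, and so was Tbx18, a T-box factor of the epicardium, at 5.10 FPKM in P6, 0.807 in P4 and 0.397 in P5. Osr1 was at 97.4, 84.7, 76.9, 69.9, 42.9 and 221 FPKM in P1 to P6, so that P4 and P5 were the lowest of the series. Of the 26 factors looked at 10 were lower and 5 higher in P6 (7.23% and 9.41% over all genes looked at). The minimum was met only through P6 by 2 of them and only through P4 and P5 by 2. Tcf21 was at 2.74 FPKM in P6, 72.8 in P4 and 29 in P5, with 177, 141 and 119 in P1 to P3. Prrx1 was at 3.20 FPKM in P6, 33.6 in P4 and 29.3 in P5, with 50.3, 52.7 and 51.7 in P1 to P3. Ebf1 was at 1.65 FPKM in P6, 27.8 in P4 and 10.3 in P5, with 59.3, 49.1 and 40.9 in P1 to P3. In all 3 P6 was the lowest library, and P4 and P5 were lower than P1 to P3. Twist1 was at 5.20 FPKM in P6, 18.8 in P4 and 28.4 in P5, with 9.18, 11.1 and 16.2 in P1 to P3, with P5 the highest.

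The 15 retained programme genes with the highest P6 values were led by Hspb1, Igfbp5 and Csrp2. Hspb1, a small heat shock protein, was at 1077 FPKM in P6, 777 in P4 and 765 in P5, with 158, 129 and 166 in P1 to P3. Csrp2, a LIM protein bound to actin, was at 903 FPKM in P6, 650.3 in P4 and 711 in P5, with 103, 197 and 197 in P1 to P3. Slc9a3r1, the ezrin-binding scaffold NHERF1, was at 249.9 FPKM in P6, 142 in P4 and 162 in P5, with 9.35, 22.2 and 42.2 in P1 to P3. In these 3 genes P4 and P5 were close to each other and above P1 to P3. Igfbp5, which binds insulin-like growth factors, was at 1019.5 FPKM in P6, 745 in P4 and 414 in P5, with 83.8, 79.6 and 77.9 in P1 to P3, and P4 was nearer to P6 than P5 was. Fgf1, a fibroblast growth factor, was at 171 FPKM in P6, 131 in P4 and 166 in P5, with 12.1, 10.4 and 35.4 in P1 to P3. Dkk3 was at 145 FPKM in P6, 93.9 in P4 and 119.9 in P5 and Myrf, a membrane-bound transcription factor, at 136 FPKM in P6, 114 in P4 and 134 in P5. The other leading retained genes were Tmem119, Nkain4, Ncoa4, Arl4d, Atg3, Ezr and Arhgap29, at 159 to 496 FPKM in P6. Gsn, which encodes the actin-severing protein gelsolin, entered the programme only because it was listed at 0 in P1, P2 and P3, where an exact 0 can be a failed estimate, and it stood at 329 FPKM in P6, 5350.4 in P4 and 2092 in P5.

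The 15 genes with the largest ratio of P6 to P4 and P5, at 20 FPKM or more, were all programme genes, of several kinds. That they fell in the lost class was set by the ranking, which uses the same ratio. Cfd, complement factor D of adipocytes, was at 114 FPKM in P6, 0.0236 in P4 and 0.0673 in P5, with 0.337, 0.314 and 0.205 in P1 to P3. Cyp2e1, a cytochrome P450, was at 57.2 FPKM in P6, 0.0222 in P4 and 0.0896 in P5, and Pon1, a paraoxonase, at 54.8 FPKM in P6, 0.0390 in P4 and 0.0247 in P5. Thrsp, a regulator of fat synthesis, was at 21.5 FPKM in P6, 0.0204 in P4 and 0.116 in P5. In these 4 genes only P6 exceeded 1 FPKM. Igfbp2 was at 216 FPKM in P6, 4.82 in P4 and 3.36 in P5, with 0.432, 1.19 and 3.04 in P1 to P3, and P6 was 52.7 times (95% counting interval 48 to 57.9) the mean of P4 and P5. Spock3, a matrix proteoglycan, was at 54.7 FPKM in P6, 1.65 in P4 and 0.622 in P5. Cpe, carboxypeptidase E, was at 144 FPKM in P6, 5.34 in P4 and 3.97 in P5, with 4.40, 16.9 and 15.2 in P1 to P3. P4 was above P1 to P3 in Igfbp2 and Spock3 and not in Cpe. Efna1, a ligand of Eph receptors, was at 22.7 FPKM in P6, 0.692 in P4 and 0.555 in P5, and Cdo1, cysteine dioxygenase, at 28.2 FPKM in P6, 0.719 in P4 and 0.341 in P5. The rest of the 15 genes were Krt7, Krt18, Krt8, Msln, Vat1l and Fam107b.

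In the Wnt list 8 of 24 genes were higher and 6 lower in P6 (9.41% and 7.23% over all genes looked at). Of the 24, 3 were looked at only through P4 and P5. Wnt2b was at 273 FPKM in P6, 20.6 in P4 and 11.4 in P5, with 2.17, 3.59 and 1.86 in P1 to P3, and P6 was 17.1 times (95% counting interval 16.6 to 17.6) the mean of P4 and P5. Rspo1, which amplifies Wnt signals, was at 231 FPKM in P6, 93.9 in P4 and 87.1 in P5, with 42.8, 57.8 and 59.5 in P1 to P3. Lgr5, a receptor of R-spondins, was lost at 9.92 FPKM in P6, 1.55 in P4 and 1.26 in P5. Wnt2, in contrast, was retained at 6.34 FPKM in P6, 7.02 in P4 and 6.38 in P5. Wnt4 was at 50.6 FPKM in P6, 115 in P4 and 172 in P5, with 5.91, 20.6 and 41.8 in P1 to P3, and the mean of P4 and P5 was 2.84 times (95% counting interval 2.77 to 2.91) P6. Sfrp1, a secreted Wnt antagonist, was at 0.628 FPKM in P6, 24.4 in P4 and 10.1 in P5, and Rspo3 at 2.84 FPKM in P6, 24.6 in P4 and 13.5 in P5. P6 thus stood higher in Wnt2b and Rspo1 and lower in Wnt4 and Rspo3.

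Among 39 TGF-beta and BMP genes 6 were higher and 10 lower in P6 (9.41% and 7.23% over all genes looked at). Of the 39, 2 were looked at only through P6 and 2 only through P4 and P5. Bmp4 was at 36.4 FPKM in P6, 1.47 in P4 and 1.02 in P5, with 2.45, 9.05 and 6.32 in P1 to P3, and P6 was 29.2 times (95% counting interval 25.6 to 33.3) the mean of P4 and P5, which were both below P1 to P3. Gdf10, a relative of the BMPs, was at 3.13 FPKM in P6, 185 in P4 and 66.6 in P5, with 561, 502 and 357 in P1 to P3. Ltbp1, which stores latent TGF-beta in matrix, was at 1.16 FPKM in P6, 67.1 in P4 and 22.5 in P5. P6 was thus the highest library for Bmp4 and the lowest for Gdf10. Among 12 IGF genes Igfbp6 was held in part at 2783 FPKM in P6, 905 in P4 and 750.5 in P5, and Igfbp4 was near equal at 2046 FPKM in P6, 1761 in P4 and 1944 in P5. Of 18 complement genes 5 were higher and 3 lower in P6 (9.41% and 7.23% over all genes looked at). Of the 18, 2 were looked at only through P6. C2, a complement protease, was held in part at 610.4 FPKM in P6, 182 in P4 and 169 in P5, and C7, a part of the membrane attack complex, was at 9.18 FPKM in P6, 73.6 in P4 and 54.2 in P5.

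Retinoid genes, which concern the ALDH gate, were divided. In P6 4 of 20 genes were higher and 4 lower (9.41% and 7.23% over all genes looked at). Of the 20, 2 were looked at only through P4 and P5. Aldh1a2, which makes retinoic acid from retinal, was at 209 FPKM in P6, 285 in P4 and 145 in P5, with 469, 78.8 and 134 in P1 to P3, so that P6 lay between P4 and P5. Aldh1a1, a second such enzyme, was at 129 FPKM in P6, 78.3 in P4 and 90.7 in P5. Stra6, which takes up retinol, was lost at 22.7 FPKM in P6, 4.23 in P4 and 2.96 in P5, and Dhrs9, a retinol dehydrogenase, was held in part at 29.4 FPKM in P6, 9.11 in P4 and 8.75 in P5. Rdh10, which oxidises retinol, was at 40.8 FPKM in P6, 112 in P4 and 149 in P5, with 33.9, 31.2 and 64.2 in P1 to P3, and Adh1, an alcohol dehydrogenase, at 1.67 FPKM in P6, 65 in P4 and 25.9 in P5. Both were higher in P4 and P5, as was Aldh1a3 at 0.642 FPKM in P6, 8.99 in P4 and 6.73 in P5.

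Of the 22 lymphoid stromal genes looked at, 1 of them only through P4 and P5, 13 were lower in P6, 0 higher and 9 neither. Over all genes looked at 7.23% were lower and 9.41% higher. The median log2 ratio of the list was -1.97. Cxcl13, the chemokine that draws B cells, was at 47.4 FPKM in P6, 825 in P4 and 3464 in P5, with 209, 304 and 2089.6 in P1 to P3, and the mean of P4 and P5 was 45.3 times (95% counting interval 43.1 to 47.5) P6. Cxcl12, a chemokine for lymphocytes and progenitors, was at 6.36 FPKM in P6, 144 in P4 and 117 in P5, with 366, 551 and 597 in P1 to P3, and the mean of P4 and P5 was 20.5 times (95% counting interval 19 to 22.1) P6. Both chemokines were lowest in P6. Ccl11, which draws eosinophils, was at 4.50 FPKM in P6, 341 in P4 and 97.4 in P5. Ccl19, a chemokine for T cells, was at 3.60 FPKM in P6, 39.8 in P4 and 46 in P5. Il6, a cytokine gene, was at 8.94 FPKM in P6, 151 in P4 and 117 in P5, and Vcam1, an adhesion molecule, at 3.54 FPKM in P6, 39 in P4 and 44.2 in P5. P5 was higher than P4 in Cxcl13 and lower in Ccl11, and P6 was the lowest library for each of these 6 genes. Pdpn, podoplanin, did not follow them, at 125 FPKM in P6, 120.0 in P4 and 103 in P5, and Il7 and Cxcl16 also stayed within a ratio of 2. Among the 726 genes of any kind for which both P4 and P5 were at least 2 times P6, 593 (81.7%) were above P6 in each of P1, P2 and P3 as well, against 3703 (29.7%) of all 12487 genes. The 726 were chosen for a low P6 value, which enters both sides, so nothing is read from the gap.

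In the fibroblast and adventitial list 11 of 24 genes were lower and 3 higher in P6, with a median log2 ratio of -0.77. The lower genes included Pdgfra, whose call was set by the CD140a gate. Over all genes looked at 7.23% were lower and 9.41% higher. Ly6c1 was at 3.13 FPKM in P6, 194 in P4 and 44.1 in P5, with 515, 270.3 and 172 in P1 to P3. Ly6a, which encodes Sca-1, was at 62.3 FPKM in P6, 645 in P4 and 298 in P5, with 1417, 994 and 729.5 in P1 to P3. Pi16, a marker of adventitial fibroblasts, was at 2.71 FPKM in P6, 40.2 in P4 and 18.2 in P5, with 156, 148 and 49.6 in P1 to P3. In these 3 genes P5 lay between P4 and P6. Dpp4, another such marker, went the other way at 71.2 FPKM in P6, 11 in P4 and 5.42 in P5, with 7.12, 5.17 and 2.20 in P1 to P3. Vim and Cd34 were within 1.24 times of equality.

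Of 38 matrix genes 15 were lower, 5 higher and 18 neither in P6. Over all genes looked at 7.23% were lower and 9.41% higher. Dpt, dermatopontin, was at 8.70 FPKM in P6, 649.6 in P4 and 264 in P5, with 1634, 1389 and 986 in P1 to P3, and the mean of P4 and P5 was 52.5 times (95% counting interval 48 to 57.3) P6. Postn, periostin, was at 2.32 FPKM in P6, 115 in P4 and 63.2 in P5. Lum, lumican, was at 6.19 FPKM in P6, 143 in P4 and 56.4 in P5, and Col14a1 at 6.83 FPKM in P6, 141 in P4 and 40.1 in P5. Each of these was lowest in P6, and so was Mmp2, a gelatinase, at 6.52 FPKM in P6, 103 in P4 and 37.5 in P5. The fibrillar collagen chains Col1a2, at 1153 FPKM in P6, 1064 in P4 and 871 in P5, and Col3a1, at 2926 FPKM in P6, 2647 in P4 and 2100.2 in P5, were within 1.23 times of equality, as was decorin (Dcn). Col1a1 was higher in P6, at 1735 FPKM in P6, 898 in P4 and 670.3 in P5. Fmod, fibromodulin, was lost at 296 FPKM in P6, 18.3 in P4 and 14.9 in P5, with 1.77, 21.2 and 21.3 in P1 to P3. Podn, podocan, was also higher in P6, at 96.7 FPKM in P6, 21.5 in P4 and 10.6 in P5, and so was Fbln1, at 363 FPKM in P6, 120.3 in P4 and 103 in P5. Col3a1 was listed at 0 in P2 and Fn1 in P1. Neither was a programme gene, and the ratio of P6 to P4 and P5 does not use those libraries.

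Of 24 basement membrane genes 7 were higher and 5 lower in P6 (9.41% and 7.23% over all genes looked at). Of the 24, 3 were looked at only through P6 and 1 only through P4 and P5. The collagen IV chains Col4a1, at 23.3 FPKM in P6, 372 in P4 and 153 in P5, and Col4a2, at 11.7 FPKM in P6, 191 in P4 and 78 in P5, were both lower in P6, and the mean of P4 and P5 was 11.3 times (95% counting interval 11 to 11.6) and 11.4 times (95% counting interval 11 to 11.9) P6. Nid1, nidogen, was at 74.7 FPKM in P6, 345 in P4 and 136 in P5, whereas its relative Nid2 was at 218 FPKM in P6, 23.9 in P4 and 18.5 in P5. Among the laminin gamma chains, Lamc1 was at 41.6 FPKM in P6, 140.4 in P4 and 62.5 in P5 and Lamc3 at 98.4 FPKM in P6, 20.6 in P4 and 17.3 in P5. P6 thus had more Nid2 than Nid1 and more Lamc3 than Lamc1 in FPKM, and P4 and P5 the reverse.

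A smaller set was higher in the mean of P4 and P5 than in each of P1, P2, P3 and P6. In 84 of the 12487 genes (0.673%) both P4 and P5 were at least 2 times P6 and their mean was at least 2 times each of P1, P2 and P3, and 20 of these were at 20 FPKM or more. They were listed after their values were seen. Gsn was the highest of them and was among them through its values of 0 in P1 to P3. Angptl7, an angiopoietin-like secreted protein, was at 2.64 FPKM in P6, 96.1 in P4 and 151 in P5, with 3.48, 2.91 and 19.9 in P1 to P3, and the mean of P4 and P5 was 46.8 times (95% counting interval 40.6 to 54) P6. Lect1, chondromodulin of cartilage, was at 1.36 FPKM in P6, 53.9 in P4 and 114 in P5, with 2.89, 10.02 and 31.9 in P1 to P3. In both genes P6 was the lowest library. Hdc, which makes histamine, was at 20.1 FPKM in P6, 104 in P4 and 161 in P5, with 3.65, 4.22 and 29.7 in P1 to P3. Gatm, which starts creatine synthesis, was at 13.7 FPKM in P6, 92.5 in P4 and 199.6 in P5, with 3.66, 6.23 and 53 in P1 to P3. Star, the cholesterol carrier of steroid synthesis, was at 39.1 FPKM in P6, 86.1 in P4 and 119 in P5, with 5.38, 6.61 and 27.6 in P1 to P3. P5 was above P4 in each of these 5 genes, and P3 was the highest of P1 to P3. Cd44, the hyaluronan receptor, was at 28.9 FPKM in P6, 73.8 in P4 and 106 in P5, with 15.6, 15.7 and 31.3 in P1 to P3, and Cd24a at 10.8 FPKM in P6, 56.1 in P4 and 61.9 in P5, with 4.65, 4.28 and 12.6 in P1 to P3, with the same order of P3, P4 and P5.

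**Figure D3:**
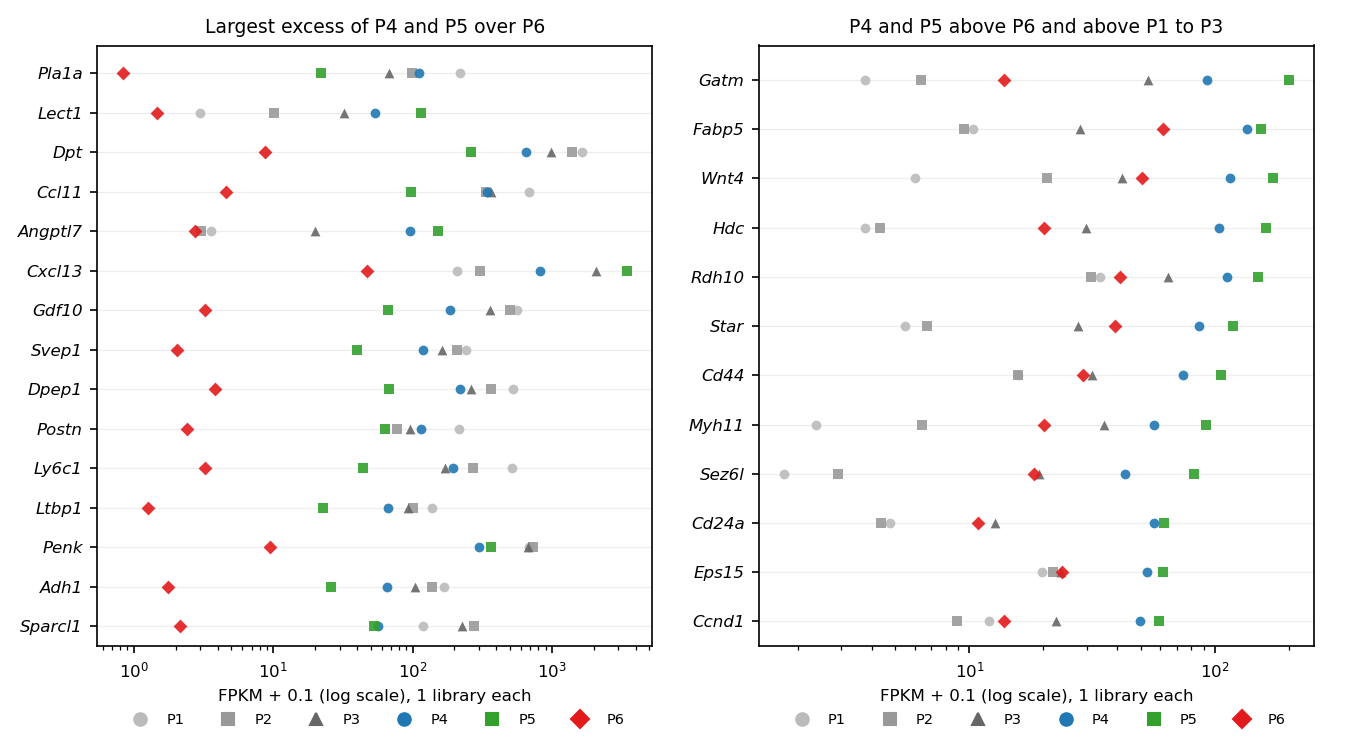
Each row is 1 gene and each symbol 1 library, with FPKM plus 0.1 on log axes; the left panel has the 15 genes with the largest ratio of P4 and P5 to P6, the right panel 12 genes also above P1 to P3. On the left P6 lies below every other library (Dpt at 8.70 FPKM in P6 against 264 and 650), and on the right P4 and P5 lie above the other 4.

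Transcripts of other cell types moved with the comparison. The 27 pancreatic acinar genes looked at, digestive enzymes of the neighbouring pancreas, were all in the P6 programme (5.95% of genes at 1 FPKM in P6). Of the 27, 24 were higher in P6, against 9.41% of all genes looked at. Amy2a5, an amylase, was at 707 FPKM in P6, 433 in P4 and 53.7 in P5, with 0.782, 75.8 and 8.01 in P1 to P3. The sum over the 28 listed genes was 2352 FPKM in P6, 1623 in P4 and 189 in P5, with 5.58, 297 and 32.1 in P1 to P3. P2 thus lay above P5 in this sum. Acinar programme genes had a median of 71.6% of P6 in P4 and 8.12% in P5, so that 26 of the 37 programme genes called retained on P4 alone and lost on P5 alone were acinar. Without the acinar list the programme held 689 genes, of which 138 were retained, 212 held in part and 339 lost.

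**Figure D4:**
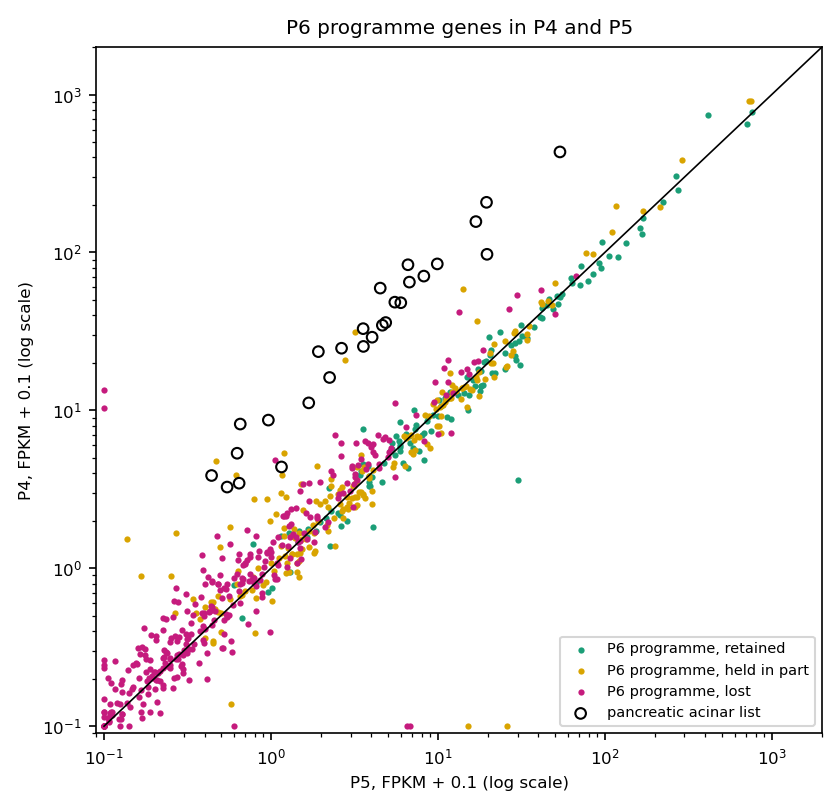
Each point is 1 of the 716 programme genes, with the FPKM of P5 on the x axis and of P4 on the y axis, both plus 0.1 on log scales; the line marks equality and open circles the pancreatic acinar list. The acinar genes lie in a band of their own, at 4.05 to 14.6 times more in P4 than in P5, and most other programme genes lie near the line.

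Adipocyte transcripts were also found in P6. Of 11 adipocyte genes looked at 7 were higher and 1 lower in P6 (9.41% and 7.23% over all genes looked at). However, 6 of the 11 reached 1 FPKM in P6 alone, so that this count is in part set by the minimum. Adipoq, adiponectin, was at 14.7 FPKM in P6, 0.0828 in P4 and 0.126 in P5, with 0.508, 0.785 and 0.128 in P1 to P3. Plin1, perilipin, was at 14.4 FPKM in P6, 0.915 in P4 and 0.495 in P5. Pck1 was listed at 0 in P4 and P5 and at 4.99 FPKM in P6, and Lep was at 0 in all 3. The summed adipocyte list was 423 FPKM in P4, 461 in P5 and 413 in P6. In the same libraries Fabp4, at 218, 349 and 179 FPKM, and Lpl, at 179.6, 83.1 and 24.9 FPKM, made up most of this sum in P4 and P5. Endothelial Pecam1 and Cdh5 were at 0.992 and 0.343 FPKM in P6 and below 0.1 in P4 and P5, while Kdr, at 3.30, 1.46 and 46.9 FPKM, and Esam, at 15.1, 9.55 and 62 FPKM, were programme genes that were lost. Tek, at 11.3, 2.84 and 0.224 FPKM, and Plvap, at 10.1, 26.8 and 4.79 FPKM, endothelial genes too, were lower in P6. Of the myeloid list 5 genes were higher and 0 lower in P6. Csf1r was at 1.22, 0.885 and 11.6 FPKM and Lyz2 at 11.1, 7.74 and 26.6 FPKM, with Adgre1, listed under its older symbol Emr1, at most 0.204 FPKM in the 3 libraries. Haemoglobin genes share near-identical copies, and their split between copies is uncertain. The part of these cell types in the lost and retained classes was not tested, and in bulk libraries fewer cells of a type and less RNA per cell cannot be told apart.

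The median log2 ratio of a list is read beside 0.02 over all genes, and its counts beside 9.41% higher and 7.23% lower over all genes looked at. It was 4.17 for the adipocyte list, which fell to 2.24 with 1 FPKM added, 1.31 for the acinar list and -1.97 for the lymphoid stromal list, the lowest of the 22. As 6 of the 11 adipocyte genes were looked at only through P6, the sign of the adipocyte median was set by the minimum. The 18 immediate-early genes, which respond to tissue dissociation, had a median of 0.19, with 2 higher and 0 lower in P6. The glycocalyx list had 5 of 19 genes higher and 7 lower, with a median of -0.58, and the IGF list 2 of 12 higher and 1 lower, with a median of 0.34. Among lists of other cell types the median was 1.64 over 6 endothelial genes (3 higher, 2 lower), 0.96 over 11 myeloid genes (5 higher, 0 lower), 1.18 over 6 erythroid genes (4 higher, 1 lower) and -0.71 over 10 mural genes (4 higher, 5 lower). Of the lymphoid and glial lists 2 genes each were looked at, with medians of 0.84 (1 higher, 0 lower) and -1.76 (1 higher, 1 lower). The glial genes went opposite ways, with log2 ratios of 1.11 for Mbp and -4.63 for S100b. Both lymphoid genes were looked at only through P6, so that the sign of their median was set by the minimum. Of the endothelial, mural, myeloid and erythroid genes 2, 2, 1 and 1 were also looked at only through P6. The endothelial, mural, erythroid and glial lists each had 1 gene looked at only through P4 and P5. Of the immediate-early genes Fos, for example, was at 1773, 1761 and 2317 FPKM in P4, P5 and P6.

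**Figure D5:**
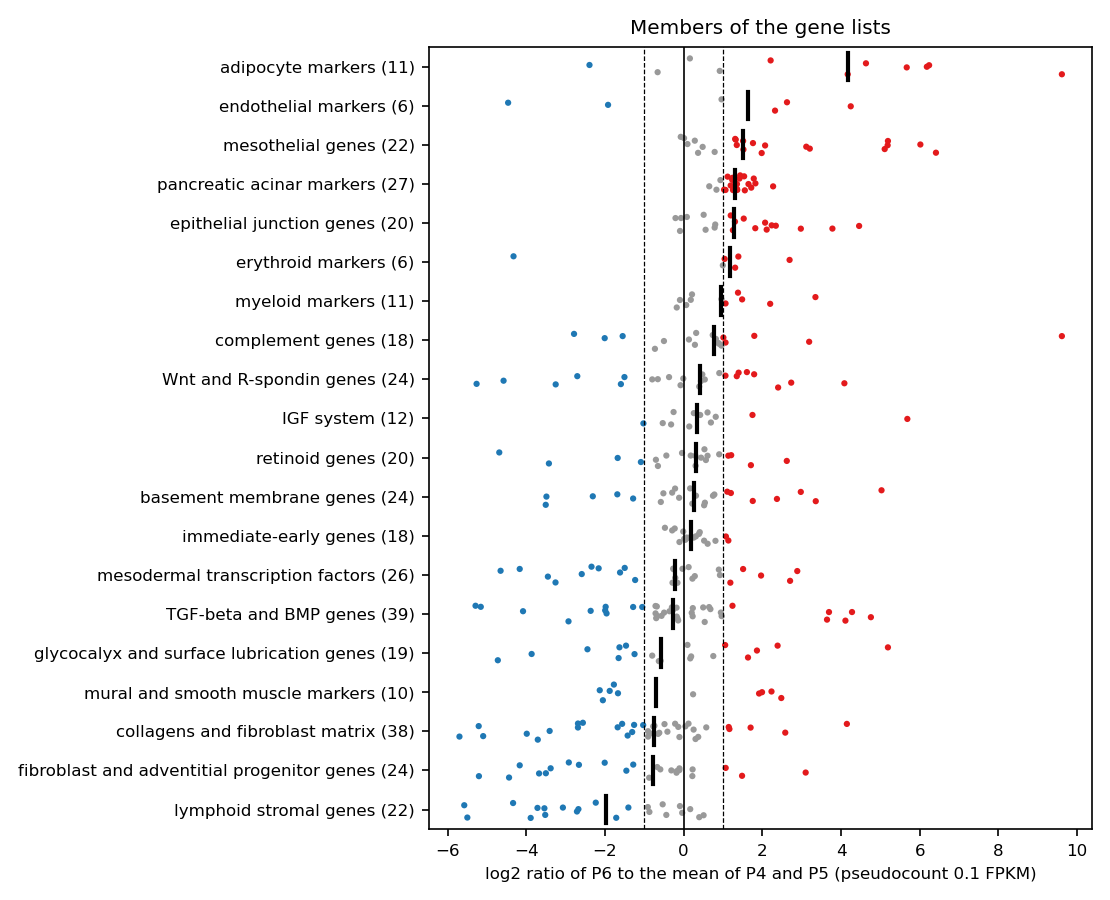
Each point is 1 gene of a list and its log2 ratio of P6 to the mean of P4 and P5 after adding 0.1 FPKM, the number of genes stands in brackets and the thick bar is the median; red and blue points are past a ratio of 2. The mesothelial, junction, acinar, myeloid and immediate-early lists have no blue point, the lymphoid stromal list no red one, and the other lists have both.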

How the data were processed

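RNA of 6 sorted stromal fractions of mouse omentum was extracted with an RNeasy micro kit, made into libraries with the NEBNext Ultra RNA kit and read on a NextSeq 500 as single reads of 76 bases. The authors deposited 1 table of FPKM per library. The submitters' processing notes name TopHat2 2.0.7, Cufflinks 2.1.1 and mm10, and the annotation used is not given in the sources used here.

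Rows of 1 symbol were summed (495 repeated rows). Ratios were formed on FPKM as deposited, without further scaling, with 0.1 FPKM added for log2 ratios and classes and nothing added for printed ratios. With 1 library per population no p-value was computed. Reads per gene were estimated from the steps of low FPKM values and from transcript lengths less an assumed 199 bases. Of values up to 10 reads, 53.0% to 58.5% were within 0.05 of a whole number. The procedure was run on simulated reads made with the same lengths and offset. That run cannot show how well these settings hold for the deposited values, so the depths and intervals are approximate. Intervals cover counting error only and are omitted under 3 reads.

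Named genes were the sort markers, members of 22 lists, the 15 largest and 15 smallest ratios at 20 FPKM or more, the 15 highest retained genes and the 10 programme genes at either extreme of P4 to P5. Small RNAs, predicted genes and acinar genes were passed over in rankings. The genes higher in the mean of P4 and P5 than in P1 to P3 and P6 were chosen after seeing values. The members and lists were chosen with earlier results of these data known. Analyses used Python 3.11.15, numpy 2.4.6 and pandas 2.3.3.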

Additional observations from a re-analysis of the deposited data

How the results depend on the processing

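No paired analysis was possible because the populations had 1 library each. The values below compare counts of genes, which were taken as changed when they moved by over 1.5 times, and list medians, by over 0.5 on the log2 scale. P4 alone and P5 alone changed no count by that much. With 1 FPKM added in place of 0.1 the programme held 404 genes, 85 retained and 157 lost. With no minimum level 1838 genes were higher and 1379 lower in P6, and with a minimum of 5 FPKM 630 and 584, with 455 programme genes and 181 lost. A ratio of 4 in place of 2 left 460 higher and 447 lower genes. Division by Gapdh, which moved the median log2 ratio of all genes from 0.02 to 0.24, left 60 retained genes. A programme at 2 times P1 to P3 held 1555 genes, 622 retained and 508 held in part, and one at 8 times held 376, with 29 and 98.

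With 1 FPKM added the median log2 ratio was 0.85 for endothelial, 2.24 for adipocyte and -0.42 for glial markers. With P4 alone it was -1.36 for the fibroblast list and 0.48 for the acinar list. With P5 alone it was -0.24 for the fibroblast list, -0.019 for the glycocalyx list and 3.58 for the acinar list. Of the named genes, Hba-a2 changed direction, to a log2 ratio of 0.062, with P5 alone. Leaving out genes listed at 0 or the acinar list, both chosen after seeing the data, changed no count by over 1.5 times. Median-of-ratios scaling and a common sum of FPKM did not either. The depth of P6, the lowest of the 6, limits genes near 1 FPKM.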

Other observations

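Of the genes for antigen presentation by MHC class II, 5 that were chosen after their values were seen are given here. H2-DMa and Ciita were picked out too and are not among the 5. H2-DMa had a log2 ratio of P6 to the mean of P4 and P5 of 0.22. Cd74, the invariant chain, was at 145 FPKM in P6, 157 in P4 and 119 in P5, with 21, 44.8 and 47.2 in P1 to P3. H2-Ab1 was at 6.21, 12.4, 23.3, 62.6, 63.3 and 57 FPKM in P1 to P6, H2-Aa at 5.97, 12.4, 17.3, 47.7, 40.6 and 38.1 FPKM, H2-Eb1 at 5.91, 8.93, 12.7, 36, 31 and 36.3 FPKM and H2-DMb1 at 1.82, 3.60, 7.99, 14.7, 20.6 and 13.6 FPKM. P4, P5 and P6 lay above the highest of P1 to P3 in each of these 5 genes. As the 5 were chosen after their values were seen, nothing is read from this shared order. The values of H2-DMa and Ciita in P1 to P3 are not given here. None of them differed by 2 times between P6 and the mean of P4 and P5. Among myeloid markers Itgam was at 0.459 FPKM or less in all 6 libraries, while Lyz2 was at 14.4, 22, 23, 11.1, 7.74 and 26.6 FPKM in P1 to P6, Cd68 at 0.858, 1.89, 1.82, 2.20, 2.67 and 6.50 FPKM, Csf1r at 0.763, 1.49, 1.66, 1.22, 0.885 and 11.6 FPKM and Tyrobp at 1.03, 1.82, 1.40, 0.656, 0.578 and 3.19 FPKM. Ptprc was at 0.755 FPKM or less. The part of myeloid cells in these values was not tested.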
